A study of Mus musculus with 6 samples.

Results

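The phase II conjugating enzymes examined here were the genes whose symbols begin with Gst of the alpha, kappa, mu, omega, pi, theta and zeta classes, with Mgst, with Ugt1a, Ugt2a, Ugt2b or Ugt3a, or with Sult, each followed by a number. They were chosen by symbol alone, without regard to their levels. The rule found 62 of the 23284 genes in the count files. Of these, 24 belonged to the glutathione family, 20 to the glucuronide family and 18 to the sulfate family. Reads sufficed for a test in 42 members, namely 21, 15 and 6 of the families in that order.

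Phase II enzymes attach a water-soluble group to drugs, steroids, bilirubin, bile acids and reactive lipids so that these can leave the hepatocyte in bile or blood. Glutathione S-transferases (GSTs) join glutathione to electrophiles, UDP-glucuronosyltransferases (UGTs) transfer a sugar from UDP-glucuronate inside the endoplasmic reticulum, and sulfotransferases (SULTs) transfer sulfate from PAPS in the cytosol. The Ugt3a enzymes are counted here with the UGTs, although they are known to use other UDP-sugars. FXR, the nuclear receptor for bile acids, is known for its control of bile acid synthesis, transport and detoxification.

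Liver mRNA was measured by paired-end RNA-seq in 3 FXR-WT and 3 Y67F-FXR livers. All came from male FXR-floxed mice injected at 8 weeks of age with AAV8 vectors under the hepatocyte-specific TBG promoter, so that Cre removed floxed FXR in hepatocytes while the second vector supplied either FXR-WT or Y67F-FXR. Y67F-FXR carries phenylalanine in place of the tyrosine that is phosphorylated in FXR-WT. After 4 weeks the mice were fed chow with 0.5% cholic acid (CA) for 6 h. Both groups thus carried the floxed allele, Cre, a transgene and CA feeding, and no group without a transgene was analysed here. Other liver cells keep their own FXR under this promoter. The labels number the livers 1 to 3 in each group without naming the animals, so p-values measure the spread between these libraries. The comparison asked which conjugating enzymes differed in mRNA when FXR could not be phosphorylated at this residue.

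Library totals ranged from 19551113 to 22053320 reads. Reads on the mouse FXR gene Nr1h4 ranged from 152 to 209 CPM in FXR-WT and from 169 to 186 CPM in Y67F-FXR livers. Counts over the whole gene do not separate the deleted part, so this value does not check the labels. Levels are given as CPM, the reads on a gene per 1000000 reads of a library scaled by its TMM factor. The 10 hepatocyte markers summed to 104940 CPM or more in every liver. Of the 12453 genes tested, the median log2 fold change was 0.01 (Y67F-FXR minus FXR-WT, as throughout).

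No conjugating enzyme passed the call rule, which required an adjusted p under 0.05 in edgeR's quasi-likelihood test and a fold change over 1.5. The count was 0 of 42 in either direction, beside 0.972% of all tested genes (121 of 12453). At an unadjusted p under 0.05, the same test gave 6 of the 42 members, or 14.3%, beside 13.4% of all tested genes. They were Ugt2b38, Ugt2b37, Sult1c2 and Gsta3 on the lower side and Gstt2 and Gstm1 on the higher side. The livers of the groups did not overlap in 4 members (Ugt2b38, Gstt2, Sult1c2 and Gsta3), or 9.52%, beside 20.6% of all tested genes. DESeq2 and edgeR's likelihood ratio test each called 1 of the 42 members, Ugt2b38, and 429 and 447 of all 12453 genes.

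**Figure D1:**
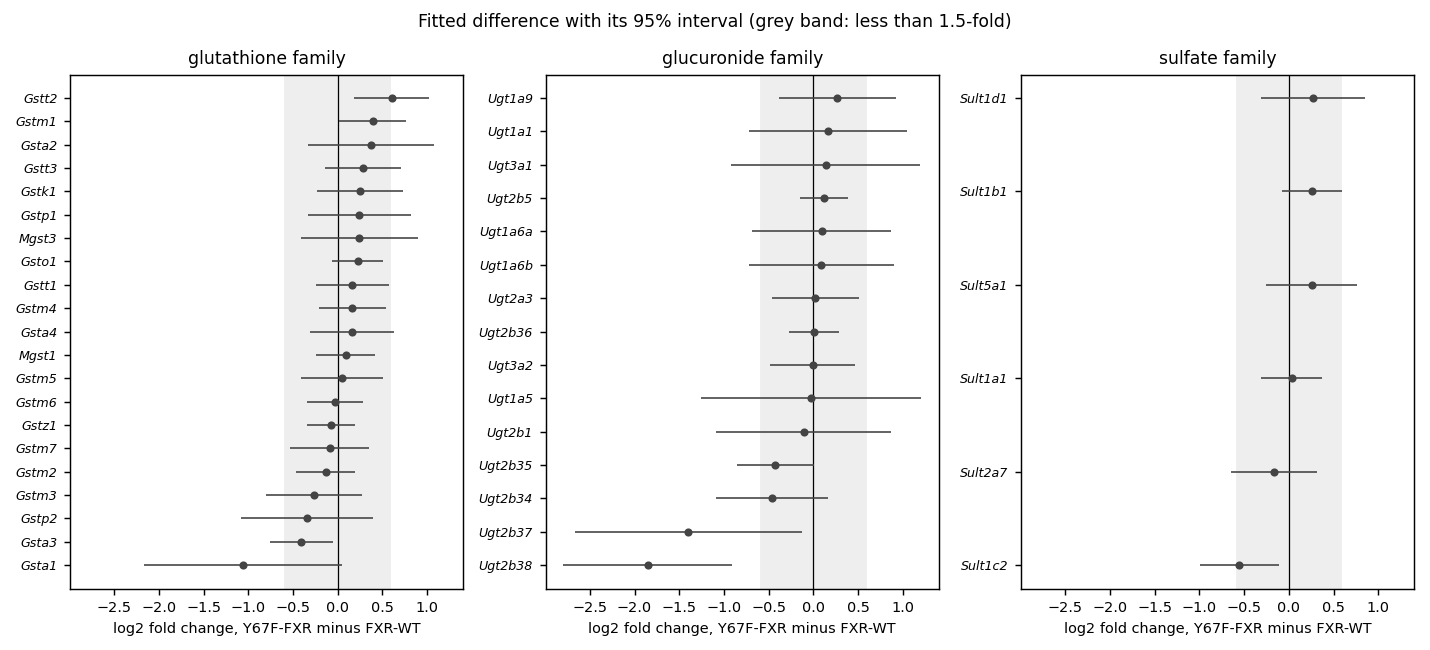
Fitted log2 fold change (x axis, Y67F-FXR minus FXR-WT) of the 42 tested members with 95% intervals, by family. The grey band marks changes under 1.5-fold, and only the intervals of Ugt2b38, Ugt2b37, Gsta3, Gstt2, Gstm1 and Sult1c2 leave 0 out.

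The size of the intervals differed between families. The 95% interval of the fold change lay within 2-fold either way for 31 of 42 members (73.8%), beside 78.0% of all tested genes. This held for 17 of 21 GSTs and 6 of 6 SULTs but for 8 of 15 UGTs. The median standard error on the log2 scale was 0.34 for UGTs, 0.18 for GSTs and 0.20 for SULTs, beside 0.20 for all tested genes. Median log2 fold changes were 0.16 for the GSTs, 0.01 for the UGTs and 0.14 for the SULTs. Single livers decided these medians: the GST median was 0.0015 without Y67F-FXR replicate 2, the SULT median 0.021 without FXR-WT replicate 1, and the UGT median ranged from -0.19 (without FXR-WT replicate 1) to 0.18 (without Y67F-FXR replicate 2). For UGTs in particular, a missed threshold therefore left wide room for differences in either direction.

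As a whole, the conjugating enzymes took from 1.13% to 1.33% of all reads in a liver. Summed GST mRNA was 8612 ± 579 CPM in FXR-WT and 9075 ± 562 CPM in Y67F-FXR livers (mean ± SD, n = 3). Summed UGT mRNA was 2722 ± 476 and 2637 ± 436 CPM, and summed SULT mRNA was 672 ± 94.9 and 701 ± 45.6 CPM. In each family the group means differed by less than the SD. In bulk liver, fewer cells of a type and less RNA per cell cannot be told apart.

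**Figure D2:**
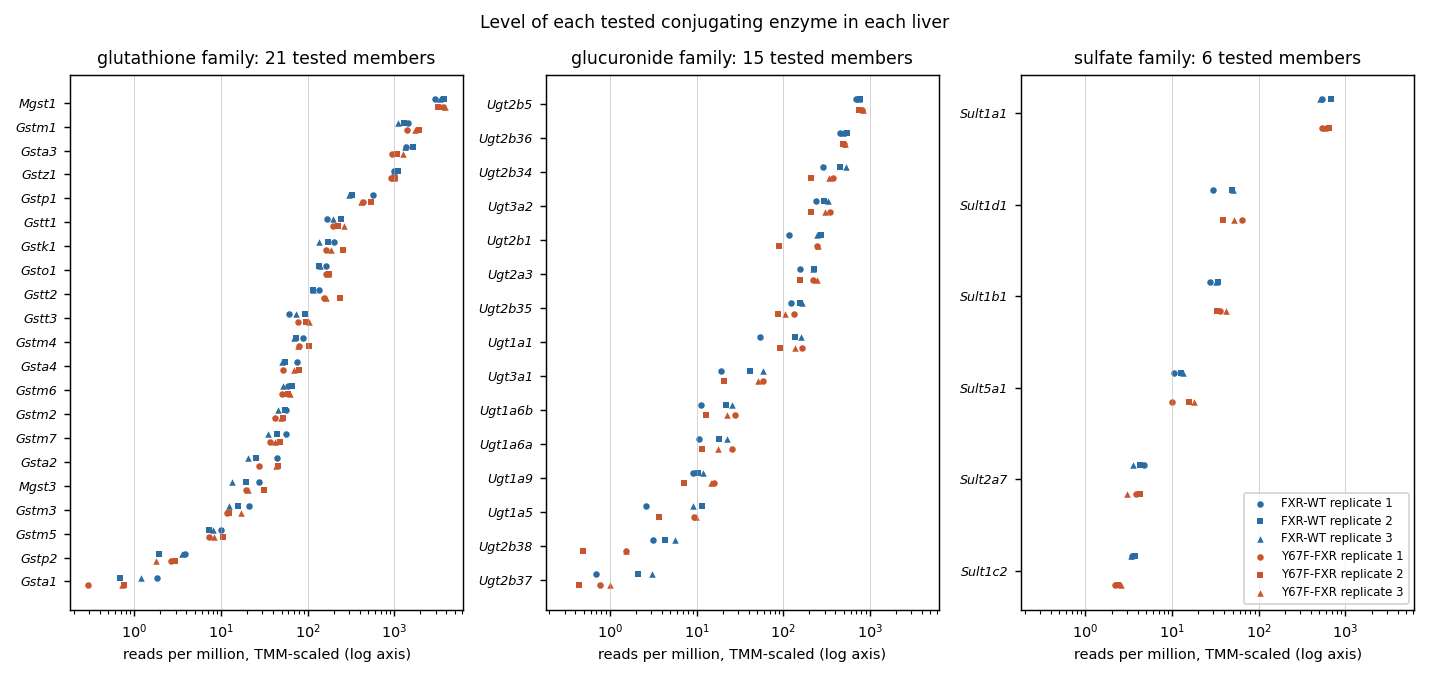
Level of each tested member in each liver (x axis, TMM-scaled CPM, log axis), sorted by mean within a family. Blue marks are FXR-WT and orange marks Y67F-FXR livers, and the marker shape gives the replicate number. Levels run from Mgst1, with 2973 to 3886 CPM, down to Gsta1, with 0.292 to 1.81 CPM.

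Among the GSTs, 4 members made up 81.8% of the family's reads. Mgst1, a transferase anchored in the membranes of the endoplasmic reticulum and mitochondria, took 39.4% alone. Its level was 2973, 3753 and 3398 CPM in FXR-WT replicates 1 to 3 and 3677, 3205 and 3886 CPM in Y67F-FXR replicates 1 to 3. The groups overlapped, and the log2 fold change was 0.09 with a 95% interval from -0.24 to 0.42. Per length, Mgst1 was also the most abundant of all members, at 3693 CPM per kb of exon over the 6 livers. Gstm1, Gsta3 and Gstp1 followed within the family at 1150, 871 and 579 CPM per kb of all exon bases. Per kb of unshared bases, Gstz1 came before Gstp1, at 614 CPM.

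Gstm1, the main mu-class enzyme of these livers, had 1447, 1298 and 1114 CPM in FXR-WT and 1411, 1913 and 1741 CPM in Y67F-FXR livers. Only Y67F-FXR replicate 1 lay within the FXR-WT range. A log2 fold change of 0.39 was fitted (SE 0.16, interval 0.02 to 0.77), with an unadjusted p of 0.0414 and an adjusted p of 0.346. The 7 mu-class genes lie together on chromosome 3 and summed to 1546 ± 201 CPM in FXR-WT and 1946 ± 284 CPM in Y67F-FXR livers. Gstm1 took 85.2% of this sum. The other mu-class genes ranged in log2 fold change from -0.27 (Gstm3) to 0.16 (Gstm4).

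Gsta3, an alpha-class enzyme known to conjugate aflatoxin epoxide in mice, had 1370.4, 1633 and 1314 CPM in FXR-WT livers. With Y67F-FXR it had 932, 1080 and 1246 CPM. Every Y67F-FXR liver was below every FXR-WT liver, although the nearest ones were close. A log2 fold change of -0.41 was fitted (SE 0.15, interval -0.76 to -0.05, adjusted p = 0.302). The alpha-class members Gsta2 and Gsta4, of which Gsta4 is known for conjugating the lipid peroxidation product 4-hydroxynonenal, had values of 0.37 and 0.16 with intervals on both sides of 0. Gsta1 was near the lower limit of detection, with 37, 14 and 28 reads against 6, 14 and 15, and its log2 fold change of -1.06 had an interval from -2.17 to 0.05.

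Gstt2, a theta-class enzyme, had the largest positive log2 fold change of the family. It had 135, 114 and 115 CPM in FXR-WT and 153, 235 and 164 CPM in Y67F-FXR livers. All Y67F-FXR livers were higher, and replicate 2 stood above the other Y67F-FXR livers. The log2 fold change was 0.60 (SE 0.18, interval 0.18 to 1.02), with an adjusted p of 0.193. With an offset for gene length in each liver, it was 0.60 with an adjusted p of 0.0499. The neighbouring theta-class genes Gstt1 and Gstt3 had log2 fold changes of 0.16 and 0.29, and their groups overlapped.

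Gstz1, Gstp1, Gstk1 and Gsto1 had intervals that included 0 and groups that overlapped. Gstz1, which isomerises maleylacetoacetate in tyrosine breakdown, had 1027 ± 63.9 CPM in FXR-WT and 978 ± 45.4 CPM in Y67F-FXR livers. Its interval ran from -0.34 to 0.20. Gstp1, the pi-class enzyme that is more abundant in male than in female mouse liver, had 562, 324 and 297 CPM against 439, 545 and 417 CPM. FXR-WT replicate 1 alone exceeded every Y67F-FXR liver, and the interval ran from -0.33 to 0.82. Gstk1, of the kappa class, had a log2 fold change of 0.25. Gsto1, of the omega class, had 146 ± 16.4 and 170.3 ± 7.93 CPM, a difference larger than either SD, with a log2 fold change of 0.22 and an interval from -0.06 to 0.51.

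The UGTs were led by the Ugt2b cluster of chromosome 5, whose enzymes glucuronidate steroids and bile acids. Ugt2b5 had 684, 760.3 and 746 CPM in FXR-WT and 806, 743 and 825 CPM in Y67F-FXR livers, and the log2 fold change of 0.12 had an interval from -0.15 to 0.38. Ugt2b36 had 454, 549 and 494 CPM against 499, 492 and 518 CPM, with an interval from -0.27 to 0.29. Within a group Ugt2b36 ranged over 1.21-fold at most, and these were the narrowest intervals of the family. Per length, Ugt2b5 reached 402 and Ugt2b36 265 CPM per kb, followed by Ugt3a2 at 130.5 and Ugt2b34 at 119.8 CPM per kb.

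Ugt2b38 and Ugt2b37, minor members of the same cluster, had the lowest log2 fold changes of all 42 tested members. Ugt2b38 had 64, 90 and 129 reads in FXR-WT and 32, 9 and 32 reads in Y67F-FXR livers, or 3.13, 4.36 and 5.57 CPM against 1.56, 0.491 and 1.53 CPM. The groups did not overlap. The log2 fold change was -1.85 (SE 0.41, interval -2.79 to -0.91), with an unadjusted p of 0.00192 and an adjusted p of 0.0968, the smallest adjusted p of any member. DESeq2 gave an adjusted p of 0.000931 and the likelihood ratio test 0.000801. Without each liver in turn, the log2 fold change ranged from -2.08 to -1.51 and the adjusted p of the quasi-likelihood test from 0.106 to 0.270.

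Ugt2b37 had 14, 44 and 71 reads in FXR-WT and 16, 8 and 21 reads in Y67F-FXR livers. FXR-WT replicate 1 fell within the range of the Y67F-FXR livers. The log2 fold change was -1.40 (SE 0.55, interval -2.67 to -0.13, adjusted p = 0.323). The few reads limit these values, and parts of these genes are alike in sequence. Of all 100-base windows of the Ugt2b38 transcript, 24.2% also occur in the transcripts of other genes, all of them Ugt2b5 or Ugt2b37, and for Ugt2b37 the share is 1.06%. Whether reads from such windows were left out of the counts was not tested.

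Because Ugt2b38 and Ugt2b37 had the lowest values and Ugt2b5 the highest level, their promoters are shown together (RefSeq, GRCm38.p6, read on the strand of the gene, 5′ to 3′). Over the 250 bases before and 50 after the gene start, Ugt2b37 and Ugt2b38 were identical at 86.9% of aligned positions, Ugt2b5 and Ugt2b38 at 84.2%, and Ugt2b5 and Ugt2b37 at 76.2%. The next pair, Ugt2b36 with Ugt2b38, reached 63.9%. The capitals mark the longest stretch found in all 3 promoters, which is 62 bases long and begins 68, 85 and 71 bases before the gene start of Ugt2b5, Ugt2b37 and Ugt2b38.
Ugt2b5 (chr5:87140327-87140428, minus strand): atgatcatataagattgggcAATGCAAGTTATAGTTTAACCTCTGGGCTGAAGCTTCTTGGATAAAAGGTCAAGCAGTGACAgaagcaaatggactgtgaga
Ugt2b37 (chr5:87254792-87254893, minus strand): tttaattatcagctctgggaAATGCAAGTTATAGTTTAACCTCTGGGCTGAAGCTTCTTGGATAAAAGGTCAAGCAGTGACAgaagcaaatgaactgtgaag
Ugt2b38 (chr5:87424193-87424294, minus strand): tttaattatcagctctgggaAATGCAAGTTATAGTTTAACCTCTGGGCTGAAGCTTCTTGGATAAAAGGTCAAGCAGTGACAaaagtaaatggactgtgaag
The 3 genes thus held the same 62 bases before the gene start, while their levels per length were 402, 0.719 and 1.47 CPM per kb and their log2 fold changes 0.12, -1.40 and -1.85 in the order shown.

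**Figure D3:**
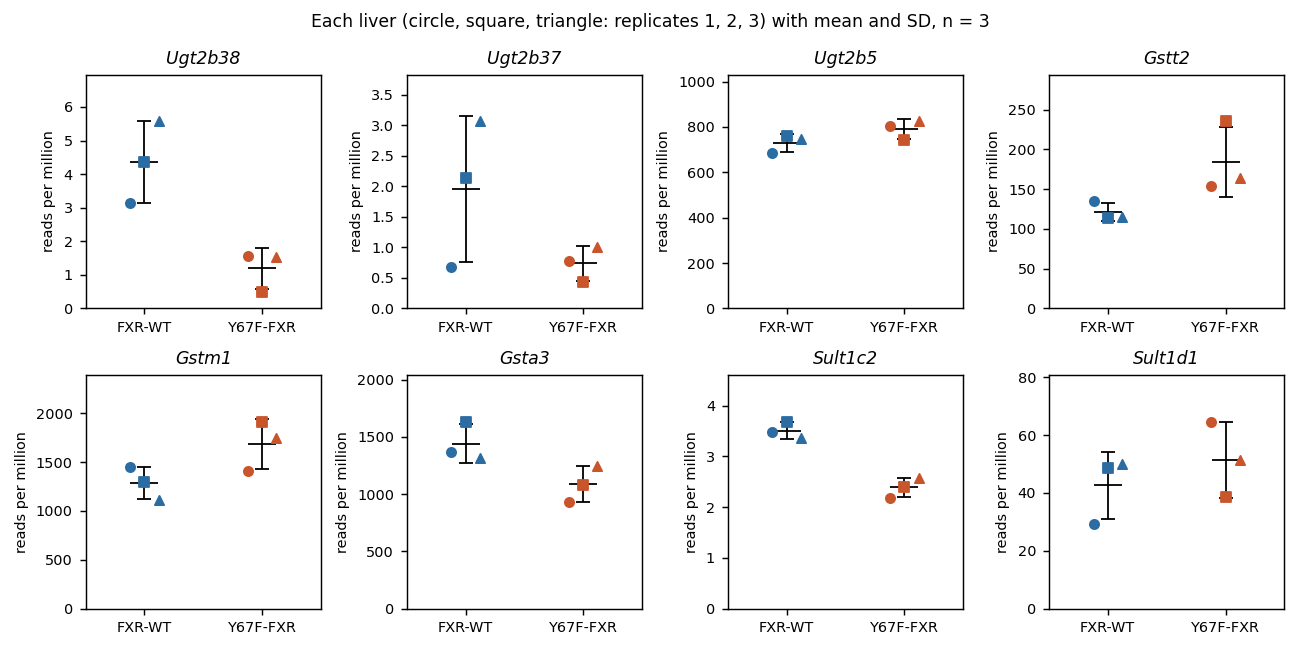
CPM (y axis, from 0) in each liver for 8 members, with group mean and SD (n = 3). Ugt2b38, Gstt2, Gsta3 and Sult1c2 show groups that do not overlap, while Ugt2b37, Ugt2b5, Gstm1 and Sult1d1 overlap.

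Other members of the cluster were abundant and variable. Ugt2b34 had 289.5, 454 and 526 CPM in FXR-WT and 371, 209 and 341 CPM in Y67F-FXR livers. Its fitted log2 fold change was -0.46 with an interval from -1.09 to 0.17, and FXR-WT replicate 1 lay among the Y67F-FXR livers. Ugt2b35 had 122, 157 and 163 CPM against 134, 88.0 and 106 CPM, with a log2 fold change of -0.43 and an unadjusted p of 0.0514. Ugt2b1 had 118, 273 and 247 CPM against 248, 90.6 and 254 CPM, so that the livers ranged over 2.31-fold in FXR-WT and 2.80-fold in Y67F-FXR. Ugt2a3, which lies between Ugt2b37 and Ugt2b38, had 203 ± 39.9 CPM in FXR-WT and 207 ± 46.3 CPM in Y67F-FXR livers.

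The Ugt1a genes of chromosome 1 share their last exons, and this limits what was counted. Each gene has its own 5′ exon, which is spliced to exons common to all, so the enzymes differ in the part that binds the substrate. In the mm9 gene models of the count files, 7 of the 8 Ugt1a genes shared 2316 exon bases with other genes of the cluster, from 70.1% to 72.2% of their exons, and Ugt1a6b shared 1312 bases (57.2%). A read on shared bases lay on several genes and was not counted, and so was a read that joined an own exon to a shared one. The bases left for counting were 890 to 986 per gene. Of the 100-base windows that lie wholly before the common stretch, 94.1% of Ugt1a6a recur in the transcripts of Ugt1a7c or Ugt1a6b, 53.0% of Ugt1a1 in Gm20528, annotated on the opposite strand, and 28.2% of Ugt1a6b in Ugt1a6a or Ugt1a7c. The share was 3.39% or less for the others. Some of these are transcripts of the same stretch of genome under several gene names, and whether this removed reads from the counts was not tested. The transcripts are shown across the start of the common stretch, with 40 bases of each gene in lower case and the first 20 common bases in capitals (GENCODE transcripts, GRCm38, plus strand of chromosome 1).
Ugt1a10: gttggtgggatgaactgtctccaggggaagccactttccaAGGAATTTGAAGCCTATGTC
Ugt1a9: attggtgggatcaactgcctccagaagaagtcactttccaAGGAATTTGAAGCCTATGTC
Ugt1a7c: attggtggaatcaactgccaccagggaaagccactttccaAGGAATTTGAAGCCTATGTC
Ugt1a6b: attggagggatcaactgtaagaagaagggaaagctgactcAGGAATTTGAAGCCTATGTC
Ugt1a6a: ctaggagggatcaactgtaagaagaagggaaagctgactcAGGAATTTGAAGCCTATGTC
Ugt1a5: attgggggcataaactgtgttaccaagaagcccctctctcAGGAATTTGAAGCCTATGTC
Ugt1a2: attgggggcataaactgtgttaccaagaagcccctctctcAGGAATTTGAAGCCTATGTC
Ugt1a1: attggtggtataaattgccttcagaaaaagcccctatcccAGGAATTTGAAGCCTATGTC
Ugt1a5 and Ugt1a2 were identical over all 40 own bases shown, and Ugt1a6b and Ugt1a6a over the last 37 of them, so that reads near this boundary can also fit several places. From here on, the common stretch ran for 1313 bases in these transcripts.

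**Figure D4:**
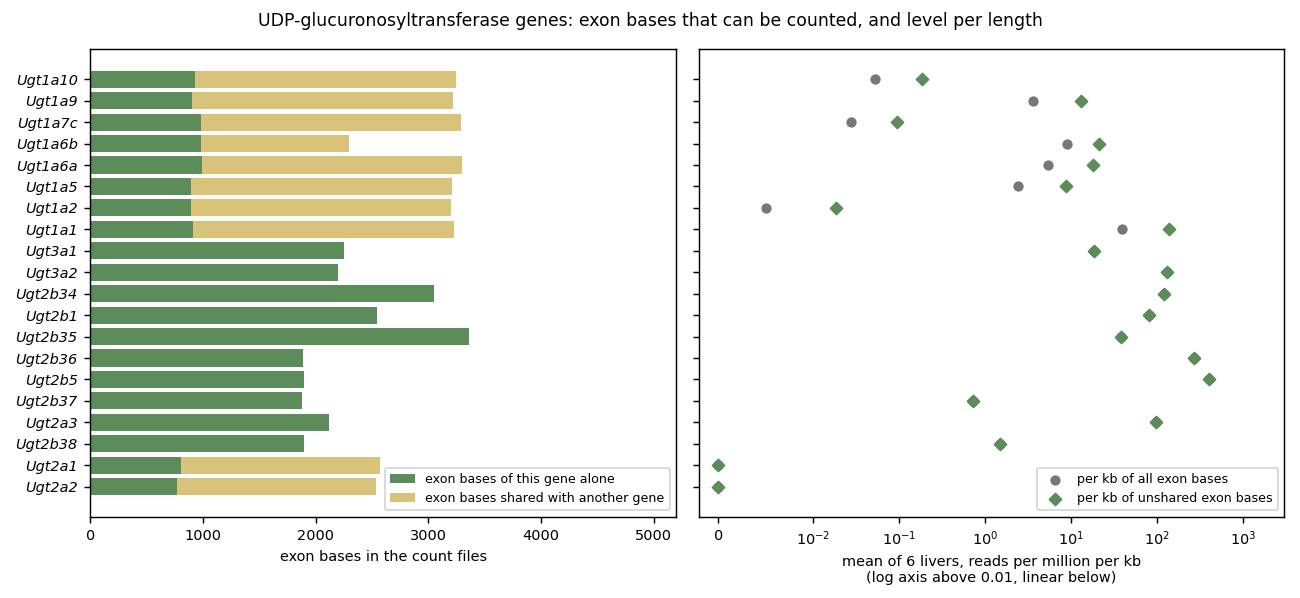
Left, exon bases of each UGT gene that belong to it alone (green) or also to another gene (yellow). Right, mean level of 6 livers per kb of all exon bases (grey circles) and per kb of unshared bases (green diamonds), log axis above 0.01. The scales differ for the Ugt1a genes and are the same for genes without shared bases.

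Ugt1a1, the enzyme that conjugates bilirubin, had 54.5, 137 and 162 CPM in FXR-WT and 166, 91.2 and 138 CPM in Y67F-FXR livers. FXR-WT replicate 1 was the lowest liver and the groups overlapped. The log2 fold change was 0.16, and the interval from -0.72 to 1.04 includes changes of 2-fold upward. Its level was 38.6 CPM per kb of all exon bases and 137 CPM per kb of unshared bases, which places it above Ugt3a2 on the second scale and below it on the first. Reads behind these values numbered 1115 to 3744 per liver.

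The other Ugt1a genes, which conjugate phenols and other xenobiotics, were less abundant. Per kb of unshared bases, Ugt1a6b, Ugt1a6a, Ugt1a9 and Ugt1a5 had 20.7, 18.0, 12.9 and 8.63 CPM. Ugt1a5 varied most, with 2.59, 11.7 and 9.03 CPM in FXR-WT and 9.38, 3.71 and 9.79 CPM in Y67F-FXR livers. A log2 fold change of -0.02 was fitted for it, with an interval from -1.25 to 1.20. Ugt1a9, Ugt1a6b and Ugt1a6a had log2 fold changes of 0.27, 0.09 and 0.09 with intervals on both sides of 0. Ugt1a10, Ugt1a7c and Ugt1a2 had 22, 11 and 2 reads in all 6 livers and were not tested. Ugt2a1 and Ugt2a2, which share 1768 exon bases with each other (68.8% and 69.7%), had 0 reads. A count of 0 allows up to 3 reads, or 0.164 CPM in the smallest library, on their unshared bases. This limit takes each read as independent. Paired reads were counted singly, so it is too low where both mates of a fragment count.

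A liver's place within its own group was alike across the UGTs. All 15 tested UGTs had their lowest value of the FXR-WT group in replicate 1 and their lowest value of the Y67F-FXR group in replicate 2. Over all tested genes this was so for 28.3%, and the reverse order, highest in these livers, for 25.8%. Of the 21 tested GSTs, 14 were highest in these livers and 1, Mgst1, was lowest in both. Of the 6 SULTs, Sult1b1 and Sult1d1 were lowest in both and Sult2a7 was highest in both. This pattern was noticed after the values were seen, and it is given as a description. Members of a family share libraries and do not count as separate observations.

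In log2 units, the median UGT deviated from its group's mean by -0.50, 0.16 and 0.36 in FXR-WT replicates 1 to 3 and by 0.38, -0.58 and 0.20 in Y67F-FXR replicates 1 to 3. The median GST deviated by 0.21, 0.01 and -0.13 and by -0.20, 0.19 and 0.05. Other tested genes in the length range of the GSTs deviated by 0.13 in FXR-WT replicate 1 and by 0.14 in Y67F-FXR replicate 2. Other tested genes in the length range of the UGTs deviated by 0.001 and -0.01 in these livers. The shortest 20% of all tested genes deviated by 0.20 and 0.22 in these livers, but from the mean over the livers of both groups together. By that measure short genes as a class read higher there. It includes any difference between the groups and uses another log2 scale, so its values cannot be compared in size with the within-group deviations. Several marker and pathway lists also stood apart in these livers. The sum of the 10 hepatocyte markers was highest there. It was 122160, 109699 and 105554 CPM in FXR-WT and 104940, 127119 and 112766 CPM in Y67F-FXR livers. The median deviations of these markers there were 0.16 and 0.09, but single markers differed. Ass1 was highest there, while Cps1 was lowest, with 692, 795 and 840 CPM in FXR-WT against 1503, 721 and 967 CPM. PAPS supply genes were lowest there, with median deviations of -0.24 and -0.28. By the same measure, export pumps (-0.24 and -0.15), deconjugating hydrolases (-0.14 and -0.13) and UDP-glucuronate supply (-0.07 and -0.14) were lowest there too. So were AhR targets (-0.24 and -0.18), CAR and PXR targets (-0.22 and -0.09), xenobiotic regulators (-0.23 and -0.05) and male-biased genes (-0.24 and -0.04). Stellate cell and fibroblast markers went opposite ways (0.29 and -0.26). The Kupffer cell and leukocyte markers were highest there, and the 12 found in the files, none of them at 0, summed to 225, 189 and 156 CPM over the FXR-WT livers and 126, 336 and 199 CPM over the Y67F-FXR livers, in the order of their numbers. The part of gene length, of these lists or of the library in the UGT and GST patterns was not tested.

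**Figure D5:**
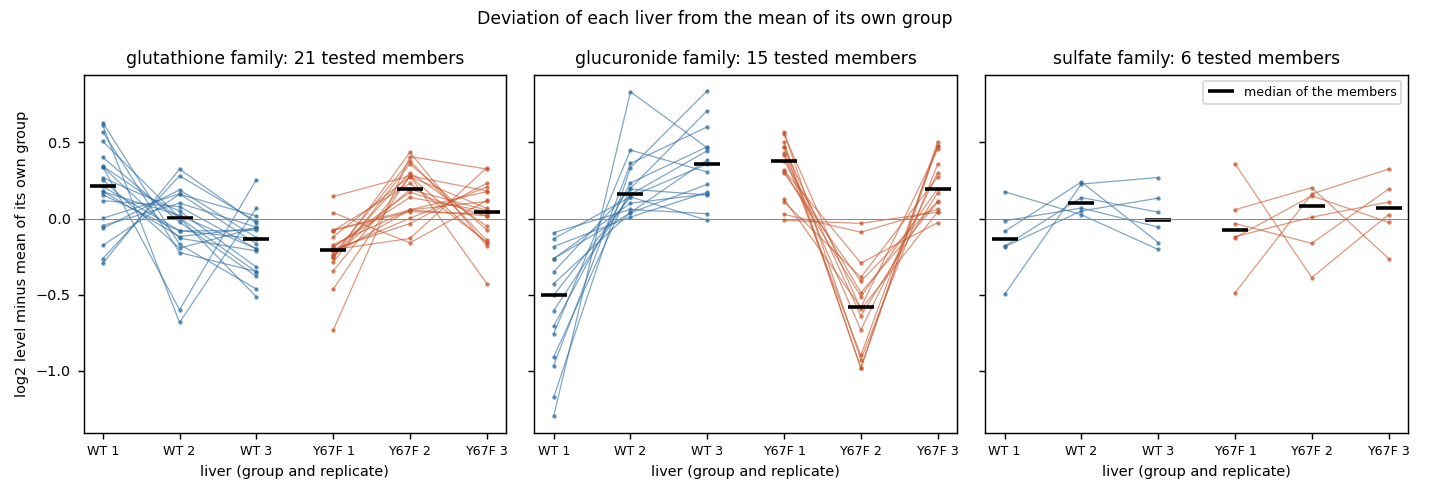
Deviation of each liver from the mean of its own group (y axis, log2) for every tested member, by family. Thin lines join the values of a gene within a group, without implying an order of livers, and black bars are medians. The 15 UGTs dip together in FXR-WT replicate 1 and Y67F-FXR replicate 2.

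The swings between livers of a group were larger than the differences between groups for most UGTs. Ugt3a1, which uses another UDP-sugar, had 19.0, 41.0 and 58.4 CPM in FXR-WT against 58.7, 20.8 and 50.7 CPM, a range of 3.07-fold and 2.82-fold within the groups. Its log2 fold change of 0.14 had an interval from -0.92 to 1.20. Ugt3a2 was steadier, at 287 ± 47.8 and 286 ± 68.6 CPM. Within the groups, Ugt2b5 ranged over 1.11-fold in both, while Ugt1a5 ranged over 4.38-fold and 2.59-fold.

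Sult1a1, the phenol sulfotransferase, took 85.2% of the reads of the SULT family as the symbols define it, and 52.6% once the row 2810007J24Rik (Sult2a8, described below) is added to the sum. It had 542, 678 and 515 CPM in FXR-WT and 540.2, 654 and 579 CPM in Y67F-FXR livers. The groups overlapped, and the log2 fold change was 0.03 with an interval from -0.31 to 0.37. Sult1d1, which sulfates catecholamines, had 29.3, 48.5 and 49.99 CPM against 64.6, 38.5 and 51.3 CPM. Sult1b1, known for acting on thyroid hormones, had 30.9 ± 3.45 and 37.0 ± 4.71 CPM. Their log2 fold changes of 0.27 and 0.26 had intervals that included 0, as did 0.25 for Sult5a1, which had 12.1 ± 1.37 and 14.5 ± 3.98 CPM. Per length, Sult1a1 had 427 CPM per kb, and Sult1d1, Sult1b1 and Sult5a1 had 19.6, 13.04 and 11.5 CPM per kb.

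Sult1c2 was the SULT whose groups did not overlap. It had 71, 76 and 78 reads in FXR-WT and 45, 44 and 54 reads in Y67F-FXR livers, or 3.47, 3.68 and 3.37 CPM against 2.19, 2.40 and 2.58 CPM. Every Y67F-FXR liver was lower, and the livers of each group were close to each other. For Sult1c2 the log2 fold change was -0.55 (SE 0.19, interval -0.99 to -0.11, adjusted p = 0.253). Sult2a7 had 4.17 ± 0.556 and 3.72 ± 0.609 CPM and a log2 fold change of -0.16.

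Most other SULTs were at or near 0. Of 18 members, 12 could not be tested, and 5 of these had no read in any liver (Sult1c1, Sult2a3, Sult2a4, Sult2a5 and Sult2a6). The gene models place Sult1c1 on both chromosome 17 and 17_random, with 3026 exon bases beside a transcript of 1556 bases. Reads that fit several places were not counted, and whether this removed reads of Sult1c1 was not tested. The hydroxysteroid sulfotransferases Sult2a1 and Sult2a2, which sulfate bile acids and are known to be low in male mouse liver, had 2 and 7 reads in all. The estrogen sulfotransferase Sult1e1 had 24 reads. Between 100-base windows, 34.6% of Sult2a2, 16.6% of Sult2a5 and 11.4% of Sult2a1 recur in other genes, and whether this removed reads from the counts was not tested. The row 2810007J24Rik, whose present name is Sult2a8, lies outside the rule because of its older symbol. It had 277, 484 and 566 CPM in FXR-WT and 503, 281 and 443 CPM in Y67F-FXR livers, with a log2 fold change of -0.11 (interval -0.80 to 0.57). It too was lowest in FXR-WT replicate 1 and Y67F-FXR replicate 2.

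Some GSTs also share sequence with other genes. Of the 100-base windows, 81.8% of Gsta1 and 35.0% of Gsta2 recur in other genes, in each other or in copies named Gm3776 and Gm10639. The shares were 63.5% for Gstp2 and 52.8% for Gstp1, each mainly with the other. Gstp1 had 579 CPM per kb and Gstp2 3.71 CPM per kb, and how reads fell between this pair was not tested. Gstz1 overlapped Pomt2 over 22.6% of its exon bases and Gstm5 overlapped 4933431E20Rik over 15.9%, and counting ignored strand. Per kb of unshared bases, Gstz1 had 614 instead of 476 CPM.

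Promoters were searched for short motifs known from genes of this kind, because bases around the gene start were on hand for 54 of the 62 members (RefSeq, GRCm38.p6, 250 bases before to 50 after the gene start, both strands). The core of the antioxidant response element (ARE), TGACNNNGC, is read by NRF2. It occurred in 4 of 22 GST promoters (Gsta3, Gstm5, Gstm7 and Mgst1), in 0 of 18 UGT and 0 of 14 SULT promoters, and in 13.99% of 27025 promoters of all genes. The strict inverted repeat GGTCANTGA, a core of FXR sites, occurred in 1 of 18 UGT promoters (Ugt3a1) and no other, beside 0.962% of all. The hepatocyte factor core GTTAATNAT of HNF1 occurred in 3 of 18 UGT promoters (Ugt1a1, Ugt1a9 and Ugt1a10) and 5 of 14 SULT promoters (Sult1d1, Sult2a3, Sult2a4, Sult2a5 and Sult2a6), beside 0.940% of all. The ARE and FXR cores share the letters TGAC, read on opposite strands, and the HNF1 core shares no such stretch with them. The matches of the members whose values are given above are shown with 20 bases on each side, on the strand of the gene, with the motif in capitals on whichever strand it was found.
Gsta3 (chr1:21240444-21240492, plus strand): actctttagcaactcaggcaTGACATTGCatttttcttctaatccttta
Mgst1 (chr6:138140451-138140499, plus strand): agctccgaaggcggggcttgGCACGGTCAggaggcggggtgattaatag
Ugt3a1 (chr15:9279591-9279639, plus strand): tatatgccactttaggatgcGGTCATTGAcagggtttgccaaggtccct
Ugt1a1 (chr1:88211895-88211943, plus strand): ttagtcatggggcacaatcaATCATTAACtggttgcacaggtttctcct
Ugt1a9 (chr1:88070665-88070713, plus strand): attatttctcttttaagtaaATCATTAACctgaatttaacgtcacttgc
Sult1d1 (chr5:87569057-87569105, minus strand): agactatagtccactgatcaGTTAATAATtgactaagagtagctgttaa
A match is a description of letters and not a site. The 4 GSTs with the ARE core, Gsta3, Gstm5, Gstm7 and Mgst1, had log2 fold changes of -0.41, 0.05, -0.09 and 0.09, while the 21 tested GSTs ranged from -1.06 to 0.60. Of the genes with the HNF1 core, Ugt1a1, Ugt1a9 and Sult1d1 had 0.16, 0.27 and 0.27, and the 4 Sult2a genes had 0 reads.

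Genes that supply the donors of conjugation were read from lists written for this purpose. None of 12 tested genes of glutathione supply, 8 of UDP-glucuronate supply and 8 of PAPS supply passed the call rule, beside 0.972% of all tested genes, a share that gives few calls in lists this short. At an unadjusted p under 0.05, edgeR's test gave 6 of the 12, 1 of 8 and 3 of 8, beside 13.4% of all tested genes. Their median log2 fold changes were -0.18, -0.25 and -0.08. Chac1, which degrades glutathione, had 6.70, 2.33 and 3.54 CPM in FXR-WT and 0.972, 1.15 and 1.00 CPM in Y67F-FXR livers (log2 fold change -2.005, adjusted p = 0.0768), and the groups did not overlap. Oplah, the 5-oxoprolinase of the glutathione cycle, had 130.1 ± 12.4 and 187 ± 3.60 CPM (0.53, adjusted p = 0.0969). Papss1, which makes PAPS, had a value of -0.62 and Slc35b2, which carries PAPS into the Golgi, 0.47, with adjusted p of 0.210 and 0.221. Uxs1, which draws on UDP-glucuronate, had -0.64 and Pgm2 0.27, with adjusted p of 0.135 and 0.387.

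Neighbouring steps had no call either. Of 19 other conjugating enzymes, 5 deconjugating hydrolases and 5 export pumps tested, 0 were called in each list, beside 0.972% of all tested genes, a share that gives few calls in lists of this size. At an unadjusted p under 0.05, edgeR's test gave 4 of 19, 2 of 5 and 2 of 5, beside 13.4% of all tested genes. The median log2 fold changes were 0.11, 0.28 and 0.12, and 11 of 19, 3 of 5 and 3 of 5 had a positive value. Ephx1, the microsomal epoxide hydrolase, had 597 ± 65.0 CPM in FXR-WT and 821 ± 35.5 CPM in Y67F-FXR livers (log2 fold change 0.46, adjusted p = 0.159). Abcc3, which exports glucuronides to blood, had 254 ± 49.0 and 388 ± 41.8 CPM (0.61, adjusted p = 0.164), and Abcg2 had 0.37 (adjusted p = 0.285). The lysosomal hydrolases Arsa and Gusb had 0.62 and 0.44, with adjusted p of 0.0961 and 0.197.

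Some calls fell among regulators and their other targets, beside 0.972% of all tested genes. Of 28 tested xenobiotic sensors and regulators, 1 was called, the repressor Bcl6, which rose by 1.77 on the log2 scale (SE 0.28, adjusted p = 0.0353). Mafg, a small MAF partner of NRF2, had 85.2 ± 6.44 CPM in FXR-WT and 42.5 ± 11.3 CPM in Y67F-FXR livers (-1.003, adjusted p = 0.0607). Of 17 tested NRF2 targets outside the families, 1 was called: Osgin1 fell by 1.92 (adjusted p = 0.0278). Gclc, the catalytic subunit for glutathione synthesis, had -0.71 (adjusted p = 0.145). Of 15 tested targets of CAR and PXR outside the families, 2 were called, namely Por, the reductase that feeds electrons to P450 enzymes, which rose by 1.20 (adjusted p = 0.0244), and Alas1 of heme synthesis, which rose by 0.84 (adjusted p = 0.0333). Of 5 tested targets of AhR, 0 were called, with Nqo1 at -0.24 and Tiparp at 0.39. The median log2 fold changes of these 4 lists were 0.14, -0.08, 0.29 and -0.08. At an unadjusted p under 0.05 they held 9 of 28, 4 of 17, 4 of 15 and 0 of 5 genes, beside 13.4% of all tested genes.

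Sex-biased liver genes were counted because several members differ between male and female mouse liver. Of 16 male-biased genes tested, 3 were called lower (Hsd3b5, Selenbp2 and Nudt7) and 1 higher (Elovl3), beside 0.972% of all tested genes, with a median log2 fold change of 0.005. Of 19 female-biased genes tested, 0 were called, with a median of -0.16. Acot3 of this list had 31.0 ± 19.2 CPM in FXR-WT and 131 ± 19.2 CPM in Y67F-FXR livers, without overlap (log2 fold change 2.08, adjusted p = 0.0909). Cux2 had 1.56 ± 1.04 and 0.404 ± 0.102 CPM, with overlap (-1.92, adjusted p = 0.215), and 12 of the 19 had a negative value. At an unadjusted p under 0.05, edgeR's test gave 8 of 16 male-biased and 6 of 19 female-biased genes, beside 13.4% of all tested genes. Markers of other cell types gave no call. The medians over the tested markers were 0.01 for 12 of Kupffer cells and leukocytes, -0.28 for 11 of stellate cells and fibroblasts, 0.01 for 10 of sinusoidal endothelium and 0.19 for 9 of cholangiocytes. Within the leukocyte list, the neutrophil genes S100a8 and S100a9 had log2 fold changes of -2.73 (adjusted p = 0.0529) and -1.95 (adjusted p = 0.106), and their groups did not overlap, while 6 of the 12 had a positive and 6 a negative value. Of the 11 stellate cell and fibroblast markers, 9 had a negative value, with Lrat at -1.15 (adjusted p = 0.0540) and Col1a1 at -0.77 (adjusted p = 0.285). Of the 10 endothelial markers, 6 had a positive value, while Lyve1 had -0.89 (adjusted p = 0.210) and Flt4 -0.30 (adjusted p = 0.302), both without overlap. Of the 9 cholangiocyte markers, 7 had a positive value, with Krt23 at 1.52 (adjusted p = 0.113), without overlap, and Krt19 at -0.80 (adjusted p = 0.420), with overlap. At an unadjusted p under 0.05 these 4 lists held 2 of 12, 3 of 11, 2 of 10 and 1 of 9 markers, beside 13.4% of all tested genes. The part of these cells in the values of the conjugating enzymes was not tested. For 10 hepatocyte markers the median was 0.02, with Cps1 at 0.46 (adjusted p = 0.505) and Ass1 at 0.30 (adjusted p = 0.607), and for the 1 tested erythrocyte marker, Alas2, the value was 0.16.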

How the data were processed

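RNA-seq counts of 6 livers were analysed, in the groups FXR-WT (n = 3) and Y67F-FXR (n = 3) of the sample labels. The authors deposited raw counts per gene, which were not normalized. Per the labels and file headers, paired-end 100 bp reads were demultiplexed with bcl2fastq 2.17.1.14, trimmed with Trimmomatic 0.36, checked with FastQC 0.11.5, aligned with STAR 2.5.3a to mm9 and counted with featureCounts 1.4.6-p4 on UCSC gene models, singly, without strand, and without reads on several genes or places. Each of the 3 pairs of livers in a group differed by more than counting noise (median chi-square per gene of at least 2.23), so no library was counted as a copy of another. A further deposited table holds the authors' own comparison (log2 fold change, mean log2 CPM, p-value and false discovery rate) and was not used.

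From the counts, edgeR 4.0.16 kept the genes passing filterByExpr, computed TMM factors and ran its quasi-likelihood test (glmQLFit, then glmQLFTest) in R 4.3.3 with limma 3.58.1, using Benjamini-Hochberg adjustment over all 12453 tested genes and without a replicate block. SE and 95% intervals come from the F statistic of the same fit. The tests were checked on simulated data. Deviations within a group used log2 of CPM plus 0.1. Tables and plots were made in Python 3.11.15 with matplotlib 3.10.9. An exact permutation test of 3 against 3 livers cannot give a two-sided p below 0.10. Intervals of counts and the limit of 3 reads cover counting error only.

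Shared exon bases were taken from the exon coordinates in the count files (mm9). Sequences came from GRCm38, as transcripts (100-base windows compared with transcripts of other genes) or promoters, and no coordinates were carried between builds. Members named were those with an adjusted p under 0.05, the 4 with the highest level per kb and the 3 with the largest change at a mean of at least 1 CPM in each family, and those sharing over 50% of exon bases; others were named after their values were seen. From each list the called genes and the 2 with the smallest adjusted p were named. A gene that this rule gives is not reported here. The members and lists were chosen with earlier results of these data known. Alternatives were RLE factors, library totals, DESeq2 1.42.0, the likelihood ratio test, other filters and thresholds, a replicate block, a loess offset (span 0.3) for gene length, and each liver left out.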

Additional observations from a re-analysis of the deposited data

How the results depend on the processing

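No member passed the call rule under RLE factors, library totals, no fold minimum, no filter on low counts, a minimum of 1 CPM in 3 livers, or with any 1 liver left out (0 to 0 members in each direction). DESeq2 and the likelihood ratio test each called 1 member lower, Ugt2b38 (log2 fold change -1.86 in both), and the gene length offset called 1 higher, Gstt2 (0.60). An unadjusted p under 0.05 in the quasi-likelihood test with the fold minimum gave 2 lower and 1 higher. The share of all genes under that rule was not counted. Without the fold minimum it was 13.4%, beside 14.3% of the members. Over all genes, DESeq2, the likelihood ratio test and the length offset called 429, 447 and 247 instead of 121. The number with a liver left out ranged from 9 (without FXR-WT replicate 3) to 66 (without FXR-WT replicate 1).

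The labels do not say whether the replicate numbers pair the livers. Same-numbered livers deviated from their group means with correlations of -0.52, -0.08 and 0.12 across genes, beside -0.59 to 0.58 for livers of different numbers. With 3 livers a group, these correlations cannot decide whether same-numbered livers shared a batch. With the replicate number as a block, 0 members were called in either direction, 8 genes in all, and 93 with the length offset added. The family medians under the block were 0.16, 0.019 and 0.13 for GSTs, UGTs and SULTs.

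The SULT median was 0.14 and became 0.26 without a filter on low counts, where further members with few reads enter. With each liver left out, the medians ranged from 0.0015 to 0.23 for GSTs, from -0.19 to 0.18 for UGTs and from 0.021 to 0.22 for SULTs. The GST median fell to 0.0015 without Y67F-FXR replicate 2, and the SULT median to 0.021 without FXR-WT replicate 1. The sign of the UGT median changed without FXR-WT replicate 1 or Y67F-FXR replicates 1 or 3, and with library totals (-0.06). Of the 21 named members for which alternatives were computed, among the 42 tested, the sign changed under some alternative for Ugt2b36, Ugt3a2, Sult1a1, Ugt1a6b, Ugt1a6a, Ugt1a5 and Ugt1a1. Depth limits Ugt2b38, Ugt2b37, Sult1c2, Sult2a7, Gsta1 and Gstp2, which rest on 129 reads per liver or fewer. With 3 livers a group, the intervals of most UGTs include changes over 1.5-fold.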
